A study of Homo sapiens with 42 samples.

Results

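Amino acid transporters were followed across all RNA-seq libraries of 786-O, a human line of clear cell renal carcinoma. The members were the genes whose symbol places them in the solute carrier families SLC1, SLC6, SLC7, SLC36, SLC38 and SLC43, with the heavy chains SLC3A1 and SLC3A2. They came to 59 of the 60609 genes counted. 786-O is VHL-deficient, so that HIF-2α is stabilized, and its endogenous HIF-1α is truncated and not functional. Every line measured derives from it, so that any functional HIF-1α comes from a transgene. The first batch held 9 groups of 3 libraries each. These were unedited wild-type (WT) cells, the HIF-1β KIN clone A21 and the HIF-2α KIN clone A31, in which the endogenous loci are homozygously tagged with V5 and Halo at the N-terminus, and 6 stable lines of WT cells that carry a Halo-tagged HIF-α transgene under the weak L30 promoter. The transgenes encoded HIF-1α, HIF-2α, 2 proteins with impaired DNA binding (HIF-1α R30E, HIF-2α R27E) and 2 with impaired dimerization (HIF-1αDM, HIF-2αDM). One field of the HIF-2αDM labels names HIF-1α, and the title was followed. The second batch held 5 groups of 3 libraries each, WT cells and L30 lines with HIF-1α, HIF-2α or a chimera. In the first chimera, HIF-2α/1α, the folded N-terminal domains come from HIF-2α and the intrinsically disordered region (IDR) from HIF-1α, and HIF-1α/2α swaps them. Each KIN group is 1 clone, and the transgenic lines still express the endogenous HIF-2α.

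Amino acid transporters carry amino acids and related compounds, such as taurine, creatine and betaine, across the plasma membrane and the membranes of lysosomes and vesicles. Several work as pairs in which a heavy chain, 4F2hc (SLC3A2) or rBAT (SLC3A1), brings a light chain of family 7 to the cell surface. SLC7A5 (LAT1) is such a light chain. It exchanges large neutral amino acids, among them leucine, an activator of the growth kinase complex mTORC1, and is known as a HIF-2α target. HIF is a dimer of an α subunit with HIF-1β that binds the hypoxia response element.

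Libraries of the first batch held 42377599 to 101186554 counted reads, and those of the second 76366799 to 109642159. In the first batch the 9 libraries numbered 3 held 72801922 reads or more, the others at most 76188914, and they stood apart from the others on the second principal component. Without them the number of members called against HIF-2α R27E went from 10 to 8, and the other counts of that batch moved by 1 at most. Levels below are normalised read counts, that is, counts scaled within a batch to a common library size. HIF1A and EPAS1 also collect transgene reads. HIF1A was at 242 ± 13.5 in WT cells and 3038 ± 233 in the HIF-1α line of the first batch, and EPAS1 at 14498 ± 2021 in WT cells and 44694 ± 6296 in the HIF-2α line (SD, n = 3 each). Not all calls followed the transgene: HIF1A was also called higher in the HIF-2α line, by 1.91 on the log2 scale in the first batch (adjusted p = 1.37e-06 from edgeR) and 1.67 in the second (adjusted p = 4.25e-21), and EPAS1 was called lower in the HIF-2α KIN clone (-1.23, adjusted p = 0.000101). Of 6 renal and clear cell carcinoma markers, PAX8 was at 18610 or more in every library, KRT18 at 7684, CDH6 at 2095 and PAX2 at 626 or more. NDUFA4L2 was low, at 30.1 to 181.9. Of 6 markers of other cell types, CD3E was at 0 in every library, PTPRC, PECAM1, ALB and MYH11 did not pass 14.0, and SYP reached 154.7. CA9, the other carcinoma marker and a HIF-1α target, was at 0.97 ± 1.68 in WT cells of the first batch (SD, n = 3) and at 0 in those of the second. In bulk RNA, fewer cells of a kind and less RNA per cell cannot be told apart. The p-values rest on the spread between libraries within groups, estimated from all groups of a fit together. They do not measure differences between separately made lines or clones.

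Of the 59 members, 29 were detected in batch 1 and 31 in batch 2, at a mean raw count of at least 10 over the libraries of a batch. The 29 were detected in both, and SLC38A4 and SLC6A3 in the second batch only. Another 28 were detected in neither, and 3 of these had no read in any library. Detected members were 5 of 6 light chains that pair with 4F2hc, SLC3A2 itself, 2 of 5 cationic transporters, 4 of 7 transporters of glutamate and small neutral amino acids (family 1), all 3 members of family 43, 2 of 4 of family 36, 7 of 11 of family 38 in batch 1 and 8 in batch 2, and 4 of 6 family 6 carriers of GABA, betaine, taurine and creatine. Neither SLC3A1 nor either of its 2 light chains was detected, and of the 9 family 6 carriers of amino acids SLC6A9 alone was.

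Per kb of exon, SLC7A5 was the highest member of WT cells in both batches, at 781.9 CPM (reads scaled to a common total) per kb in the first and 390.7 in the second. SLC1A5, the glutamine carrier ASCT2, was next at 174.5 and 125.4, and SLC3A2 followed at 136 and 95.72. The length joins all annotated exons of a gene, which can exceed a single transcript. By CPM alone SLC3A2, at 869.6 and 611.8, stood above SLC1A5, at 581.5 and 417.8. By count alone SLC7A5 ranked 11 among all genes of the first batch and took 0.21% to 0.63% of a library's reads there, against 0.16% to 0.284% in the second.

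**Figure D1:**
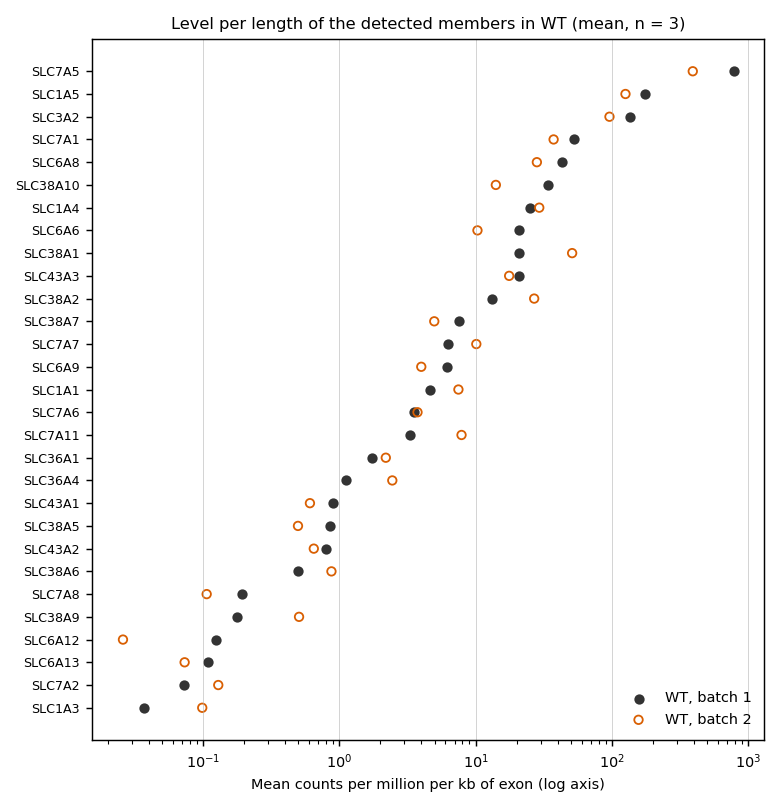
Level per length of the 29 members detected in both batches in WT cells (mean CPM per kb of exon, log axis, n = 3 libraries per batch). SLC7A5 lies at the top in both batches, at 781.9 and 390.7, and SLC1A5 and SLC3A2 follow.

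The letters of the HIF core, ACGTG or GCGTG on either strand, were looked for in the 250 bases before the RefSeq gene starts (GRCh38.p14). Windows were found for 44 of the 59 members and for 11 of the 15 members described one by one below. Of all 35116 RefSeq windows, 43.2% held one of the 2 words, 18.5% held ACGTG and 32.2% held GCGTG, so a match is common. The windows of 3 members are printed, 5′ to 3′ on the strand of the gene, with matches in capitals. SLC7A5 is the known HIF-2α target, SLC38A5 was called in the most comparisons, and SLC6A8 was called higher with HIF-1α than in WT cells and both HIF-1α mutants.

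SLC7A5, chr16:87869508-87869757, minus strand: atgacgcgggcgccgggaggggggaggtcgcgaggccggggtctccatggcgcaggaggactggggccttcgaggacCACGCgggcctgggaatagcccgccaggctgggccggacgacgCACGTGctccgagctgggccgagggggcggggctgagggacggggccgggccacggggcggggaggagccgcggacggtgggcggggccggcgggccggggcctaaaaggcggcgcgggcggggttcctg
SLC38A5, chrX:48470261-48470510, minus strand: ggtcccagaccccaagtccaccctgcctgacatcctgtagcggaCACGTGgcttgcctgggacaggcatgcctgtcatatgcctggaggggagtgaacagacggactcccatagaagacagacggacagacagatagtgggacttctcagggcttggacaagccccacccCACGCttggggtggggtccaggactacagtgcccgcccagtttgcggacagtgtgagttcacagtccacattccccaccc
SLC6A8, chrX:153687676-153687925, plus strand: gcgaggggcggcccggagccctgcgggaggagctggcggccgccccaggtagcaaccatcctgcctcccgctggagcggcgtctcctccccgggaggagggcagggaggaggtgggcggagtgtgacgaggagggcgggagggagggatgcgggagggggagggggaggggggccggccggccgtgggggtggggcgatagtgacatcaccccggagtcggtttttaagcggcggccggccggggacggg

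The SLC7A5 window held ACGTG on both strands within 1 palindrome that starts 130 bases before the gene start, and GCGTG on the opposite strand at 173 bases. In the SLC38A5 window the same palindrome starts at 206 bases and GCGTG lies on the opposite strand at 80 bases. The SLC6A8 window held neither word. SLC1A1 had 4 matches of GCGTG and SLC6A9 had none. SLC6A6, SLC7A2, SLC7A11 and SLC6A12 had no entry.

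Members were compared between groups with edgeR's quasi-likelihood test on all genes of a batch. A member was called when its Benjamini-Hochberg adjusted p did not exceed 0.01 and it changed 2-fold or more. Tested were 37 of the 59 members in batch 1 and 48 in batch 2, those with a mean normalised count of at least 0.5. With HIF-1α, 5 members were called against WT cells in the first batch (4 higher, 1 lower; 3.79% of all genes were called) and 5 in the second (3 higher, 2 lower; 4.39% of all genes). With HIF-2α, 9 were called in the first batch (4 higher, 5 lower; 5.72% of all genes) and 11 in the second (6 higher, 5 lower; 7.58% of all genes). HIF-2α/1α gave 4 calls (2 higher, 2 lower; 3.49% of all genes) and HIF-1α/2α 13 (5 higher, 8 lower; 7.78% of all genes). All comparisons with WT cells in a batch share its 3 WT libraries. Of the members called higher, SLC38A3, SLC6A17, SLC6A3, SLC38A4 and SLC6A15 had 0 to 2 reads in each WT library of the batch where they were called and passed the filter through the lines where they were high. They had to differ, and 3 of the 6 higher with HIF-2α in the second batch were of this kind. So were SLC38A3 and SLC6A3 with HIF-1α in that batch, and SLC38A4 and SLC6A3 with HIF-1α/2α. In the first batch SLC38A3 with HIF-1α and SLC6A17 with HIF-2α were.

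The median log2 change of the detected members was -0.18 with HIF-1α and -0.21 with HIF-2α in the first batch, where the medians of all genes were -0.03 and -0.09. In the second batch the medians were -0.12 with HIF-1α/2α (all genes 0.08), -0.08 with HIF-2α (0.07), -0.07 with HIF-1α (0.03) and -0.06 (0.03) in the chimera HIF-2α/1α. The plot of changes from WT cells gives the members one by one.

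**Figure D2:**
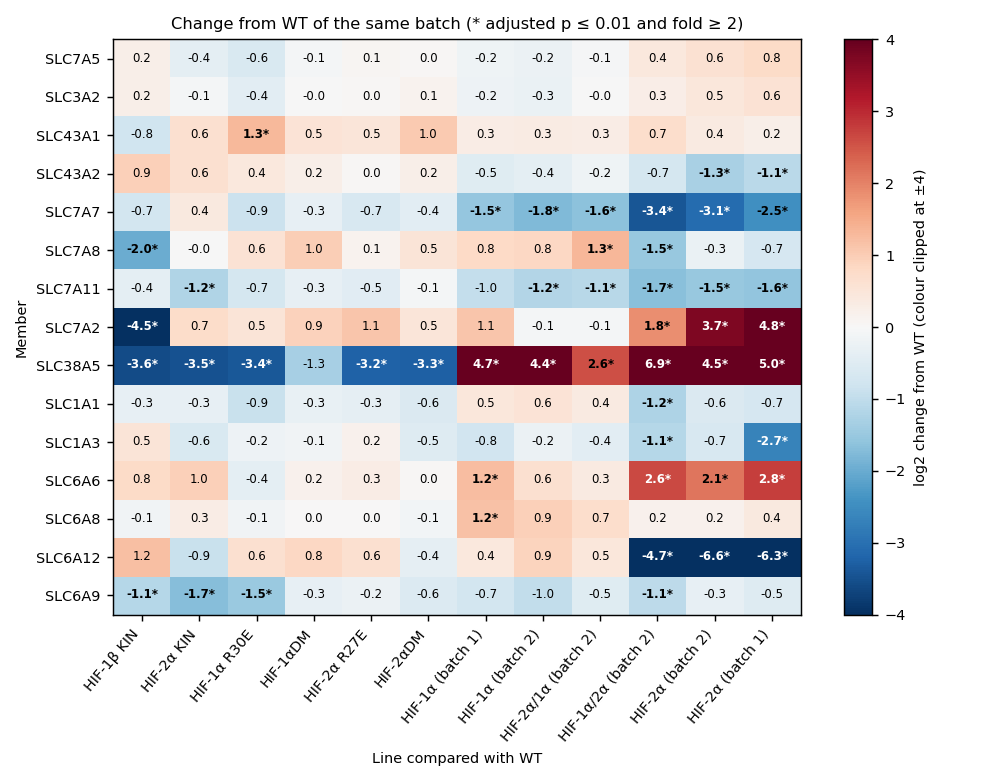
Fitted log2 change from WT cells of the same batch for the 15 members described one by one (rows, by role) in the 12 comparisons with WT cells (columns). Bold values with an asterisk passed both thresholds; colours are clipped at 4 log2 units. SLC38A5 is higher in all 6 columns with functional HIF-α, and SLC7A5 and SLC3A2 hold no asterisk. The values of SLC6A12 with HIF-2α and HIF-1α/2α, and of SLC7A2 in HIF-1β KIN, come from groups with 0 to 4 reads per library and depend on the prior count of the fit.

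SLC7A5 (ENSG00000103257.9, chromosome 16, 87830023 to 87869507, minus strand, with 1 antisense gene inside it) was higher in the second batch with HIF-2α and HIF-1α/2α, by less than 2-fold. In the second batch it had 167248, 162821 and 169953 normalised counts in WT cells and 264271, 255891 and 249771 with HIF-2α. The HIF-1α/2α libraries followed at 213723, 232008 and 221427, the HIF-2α/1α libraries were at 166155, 150132 and 163635, and the HIF-1α libraries were lowest at 140333, 142270 and 143229. Every library of HIF-2α and HIF-1α/2α thus lay above every WT library, and every HIF-1α library below. Against WT cells the log2 change was 0.62 with HIF-2α (SE 0.0440, adjusted p = 4.12e-16 from edgeR), 0.42 with HIF-1α/2α (SE 0.0439, adjusted p = 7.73e-11) and -0.23 with HIF-1α (SE 0.0438, adjusted p = 4.84e-05). With HIF-2α/1α it was -0.06, with a 95% interval of -0.15 to 0.03, and did not pass.

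The first batch had wider spread for SLC7A5. WT libraries were at 204651, 225401 and 320479, HIF-2α libraries at 332141, 427474 and 514073, and HIF-1α libraries at 163554, 215773 and 284959. The HIF-2α libraries lay above all WT libraries, the lowest of them close to the highest of WT cells. The log2 change with HIF-2α was 0.76 (SE 0.257), near that of the second batch, but its adjusted p of 0.0471 in edgeR's test missed 0.01. Without the 9 libraries numbered 3 it was 0.84 (adjusted p = 0.00455 in the same edgeR test), and DESeq2 gave 0.83 (adjusted p = 0.00917). The 12 libraries of the 4 mutant lines ranged from 121348 to 361633 and the 6 of the KIN clones from 167898 to 381177, and no change there passed an adjusted p of 0.01. The pseudogene SLC7A5P1 held a mean raw count of 128.3 in the first batch, far under the gene itself.

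SLC3A2 (ENSG00000168003.16, chromosome 11, 62856004 to 62888880), the heavy chain that SLC7A5 needs, followed the same order of lines at smaller size. In the second batch it had 52813, 54313 and 57228 normalised counts in WT cells, 75614, 73663 and 75935 with HIF-2α, and 60422, 67973 and 67540 with HIF-1α/2α. The HIF-1α libraries held 44852, 45990 and 47326 and the HIF-2α/1α libraries 55920, 51960 and 56403. Only the last group overlapped with WT cells. The log2 change was 0.45 with HIF-2α (SE 0.0488, adjusted p = 1.21e-10 from edgeR), 0.25 with HIF-1α/2α (SE 0.0487, adjusted p = 3.24e-05) and -0.25 with HIF-1α (SE 0.0487, adjusted p = 7.50e-05). With HIF-2α/1α it did not pass, with a 95% interval of -0.10 to 0.09. In the first batch the HIF-2α libraries held 82144, 81552 and 97872 against 57209, 51302 and 66702 in WT cells, a log2 change of 0.58 (SE 0.197) whose adjusted p of 0.0501 in edgeR's test did not pass. DESeq2 gave 0.64 (adjusted p = 0.00827), and edgeR without the 9 libraries numbered 3 gave 0.62 (adjusted p = 0.0424), which did not pass.

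**Figure D3:**
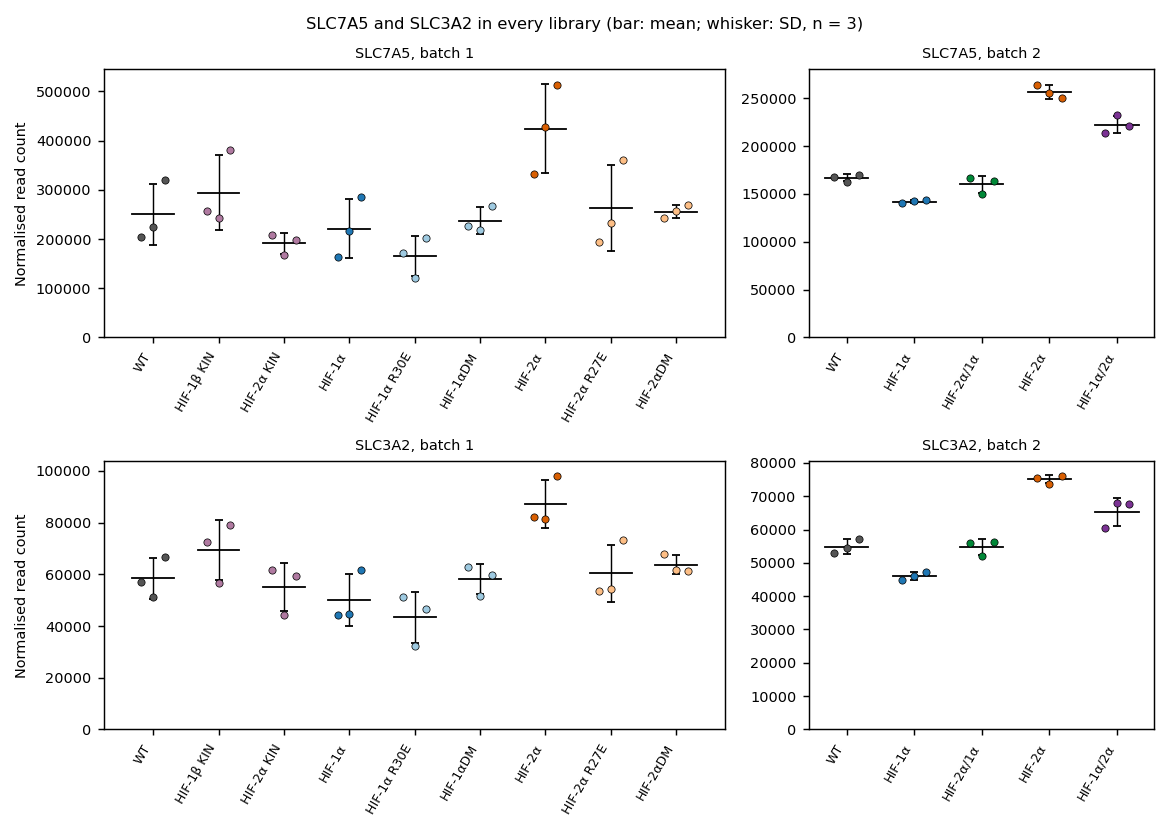
Normalised counts of SLC7A5 (top) and SLC3A2 (bottom) in every library of the first (left) and second batch (right); points are libraries, bars the mean and whiskers the SD (n = 3). In the second batch the 3 HIF-2α libraries of SLC7A5 lie between 249771 and 264271 and those of WT cells between 162821 and 169953, while in the first batch the spread within a group is wider.

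SLC43A2 (LAT4), a carrier of family 43 for leucine, phenylalanine and methionine that works without a heavy chain, was lower with HIF-2α. In the second batch it had 570, 593 and 688 normalised counts in WT cells and 251, 259 and 250 with HIF-2α, with no overlap. The log2 change was -1.28 (SE 0.118, adjusted p = 1.75e-12 from edgeR). With HIF-1α/2α it was -0.72 and with HIF-1α -0.38, both past the adjusted p but under 2-fold. In the first batch the HIF-2α libraries held 223, 341 and 248 against 567, 638 and 507 in WT cells, a log2 change of -1.08 (SE 0.279, adjusted p = 0.00888 in edgeR's test). This call was lost in 5 of the 6 fits that left out 1 library (all but the one without HIF-2α replicate 2), with log2 changes of -1.15 to -0.96. It was also lost with RLE scaling (-1.01) and with a filter at a mean normalised count of 10 (-1.04). Its relative SLC43A1 (LAT3) was called in HIF-1α R30E, at 516 ± 44.7 against 212 ± 15.3 in WT cells (SD, n = 3 each), a log2 change of 1.28 (adjusted p = 2.73e-04 in the same edgeR test).

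SLC7A7 (y+LAT1), a light chain that exports arginine and lysine in exchange for neutral amino acids, fell in all 6 comparisons of functional HIF-α with WT cells. Within the second batch its libraries held 4833, 4791 and 4933 normalised counts in WT cells, 1326, 1418 and 1516 with HIF-1α and 1643, 1426 and 1598 in the chimera HIF-2α/1α. With HIF-2α they held 610, 494 and 628, and with HIF-1α/2α 395, 443 and 530. The lines thus fell into 3 levels that did not overlap, WT cells, the 1α-IDR and the 2α-IDR. The log2 change was -1.77 with HIF-1α (SE 0.0857, adjusted p = 2.20e-21 from edgeR), and -3.07 with HIF-2α (SE 0.0926, adjusted p = 2.28e-29). The chimeras had -1.64 (HIF-2α/1α) and -3.42 (HIF-1α/2α). In the first batch WT libraries held 2454, 2327 and 1972, HIF-1α libraries 804, 987 and 546 and HIF-2α libraries 562, 365 and 307. The changes were -1.53 (SE 0.238, adjusted p = 6.05e-05 in edgeR's test) and -2.46 (SE 0.247, adjusted p = 4.54e-08). The mutant lines lay between 985 and 2023, below or within the WT range, and none was called. HIF-2α was lower than HIF-2α R27E by 1.80 and than HIF-2αDM by 2.02 on the log2 scale, and both calls passed.

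SLC7A8 (LAT2), a further light chain for neutral amino acids, was expressed at a low level and differed by IDR. Within the second batch WT cells had 44.3, 38.8 and 88.2 normalised counts, HIF-1α 118, 117 and 70.1 and HIF-2α/1α 169, 147 and 113. HIF-2α had 54.5, 41.6 and 44.6 and HIF-1α/2α 10.8, 40.4 and 10.8. The call of HIF-2α/1α (log2 1.33, adjusted p = 0.00114 from edgeR) and that of HIF-1α/2α (-1.51, adjusted p = 9.69e-04) were each lost in 3 of 6 fits with 1 library left out. The libraries were HIF-2α/1α replicate 1 and WT replicates 1 and 2 for the first (1.11 to 1.20), and HIF-1α/2α replicates 1 and 3 and WT replicate 3 for the second (-1.22 to -1.06). In the first batch it was called in the HIF-1β KIN clone, at 19.2 ± 6.36 against 77.8 ± 4.04 in WT cells (SD, n = 3 each), but not without HIF-1β KIN replicate 1 (-1.79) or 2 (-1.98).

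SLC7A11 (xCT) imports cystine in exchange for glutamate, and cystine feeds glutathione synthesis. It fell with every functional HIF-α of the second batch. WT cells had 6856, 7104 and 6430 normalised counts, HIF-1α 2724, 3051 and 3203, HIF-2α/1α 2893, 3222 and 3400, HIF-2α 2186, 2528 and 2498 and HIF-1α/2α 2241, 2347 and 1847. All 12 transgenic libraries lay below all WT libraries. Log2 changes were -1.66 with HIF-1α/2α, -1.5 with HIF-2α, -1.18 with HIF-1α and -1.10 for the other chimera, each with an SE of 0.0762 to 0.0778 and the weakest with an adjusted p of 7.74e-16 in edgeR's test. Within the first batch HIF-2α libraries held 529, 911 and 688 against 2579, 1976 and 1864 in WT cells, a change of -1.59 (SE 0.222, adjusted p = 8.03e-06 in edgeR's test). HIF-1α libraries held 921, 1175 and 1226, a change of -0.95 that passed the adjusted p (0.00459) but not the fold. The HIF-2α KIN clone was also called, at 920 ± 180 against 2139 ± 385 (SD, n = 3 each; log2 -1.22, adjusted p = 3.23e-04 from edgeR).

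SLC7A2 (CAT2), an importer of arginine, lysine and ornithine that works alone, rose with HIF-2α. Within the first batch WT cells had 61.1, 34.8 and 20.4 normalised counts and HIF-2α 1260, 1173 and 882, while HIF-1α had 47.2, 165 and 41.9. The mutant lines lay between 41.8 and 116. The log2 change with HIF-2α was 4.83 (SE 0.548, adjusted p = 3.25e-07 from edgeR). The second batch had 101, 78.4 and 95.2 in WT cells, 1205, 1284 and 1160 with HIF-2α and 441, 310 and 228 with HIF-1α/2α. HIF-1α with 78.1, 106 and 76.8 and HIF-2α/1α with 95.8, 94.8 and 68.8 overlapped with WT cells. The change was 3.73 with HIF-2α (SE 0.175, adjusted p = 2.69e-22 in edgeR's test) and 1.85 with HIF-1α/2α (SE 0.175, adjusted p = 3.94e-12). Both lines with the 2α-IDR were thus higher, HIF-2α the more so. In the HIF-1β KIN clone the 3 libraries held 1, 0 and 4 reads, against a level of 38.8 ± 20.7 in WT cells (SD, n = 3), and the gene was called lower. SLC7A1 (CAT1), the other detected cationic carrier, changed by -0.33 to 0.18 in the 6 comparisons.

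SLC38A5 (SNAT5), which carries glutamine, asparagine, histidine, serine and glycine in either direction, was called in 17 of the 23 comparisons, more than any other member. Within the first batch WT cells had 225, 226 and 240 normalised counts, HIF-1α 5235, 6845 and 5782 and HIF-2α 6858, 7430 and 8490. Within the second batch WT cells had 177, 148 and 211, HIF-2α/1α 1081, 1027 and 1052, HIF-1α 3665, 3579 and 3819, HIF-2α 3924, 3752 and 4709 and HIF-1α/2α 19049, 20948 and 24161. Every group with functional HIF-α lay far above WT cells. HIF-1α and HIF-2α were close to each other, and the chimeras lay below and above both. The log2 change in the first batch was 4.69 with HIF-1α (SE 0.361, adjusted p = 8.79e-10 from edgeR) and 5.04 with HIF-2α (SE 0.367, adjusted p = 1.12e-10). In the second it was 6.91 with HIF-1α/2α, 4.54 with HIF-2α, 4.38 with HIF-1α and 2.57 in the chimera HIF-2α/1α, each called, with SEs of 0.0978 to 0.103.

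The edited clones and the mutants had less SLC38A5 than WT cells. The libraries held 12.9, 19.2 and 24.8 normalised counts in the HIF-1β KIN clone, 6.54, 18.6 and 33.0 in the HIF-2α KIN clone, 10.8, 22.1 and 30.7 with HIF-1α R30E, 29.7, 20.2 and 23.5 with HIF-2α R27E and 6.94, 45.9 and 18.9 with HIF-2αDM. All lay under the lowest WT library. The log2 changes from WT cells ran from -3.58 in HIF-1β KIN to -3.23 in HIF-2α R27E and all 5 were called. HIF-1αDM, at 96.6, 107 and 71.2, lay between (log2 -1.33) and was not called by edgeR, but was by DESeq2. The direct comparisons of functional protein with mutant gave log2 differences of 8.07 (HIF-1α against R30E), 6.02 (HIF-1α against HIF-1αDM), 8.27 (HIF-2α against R27E) and 8.31 (HIF-2α against HIF-2αDM), all called.

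**Figure D4:**
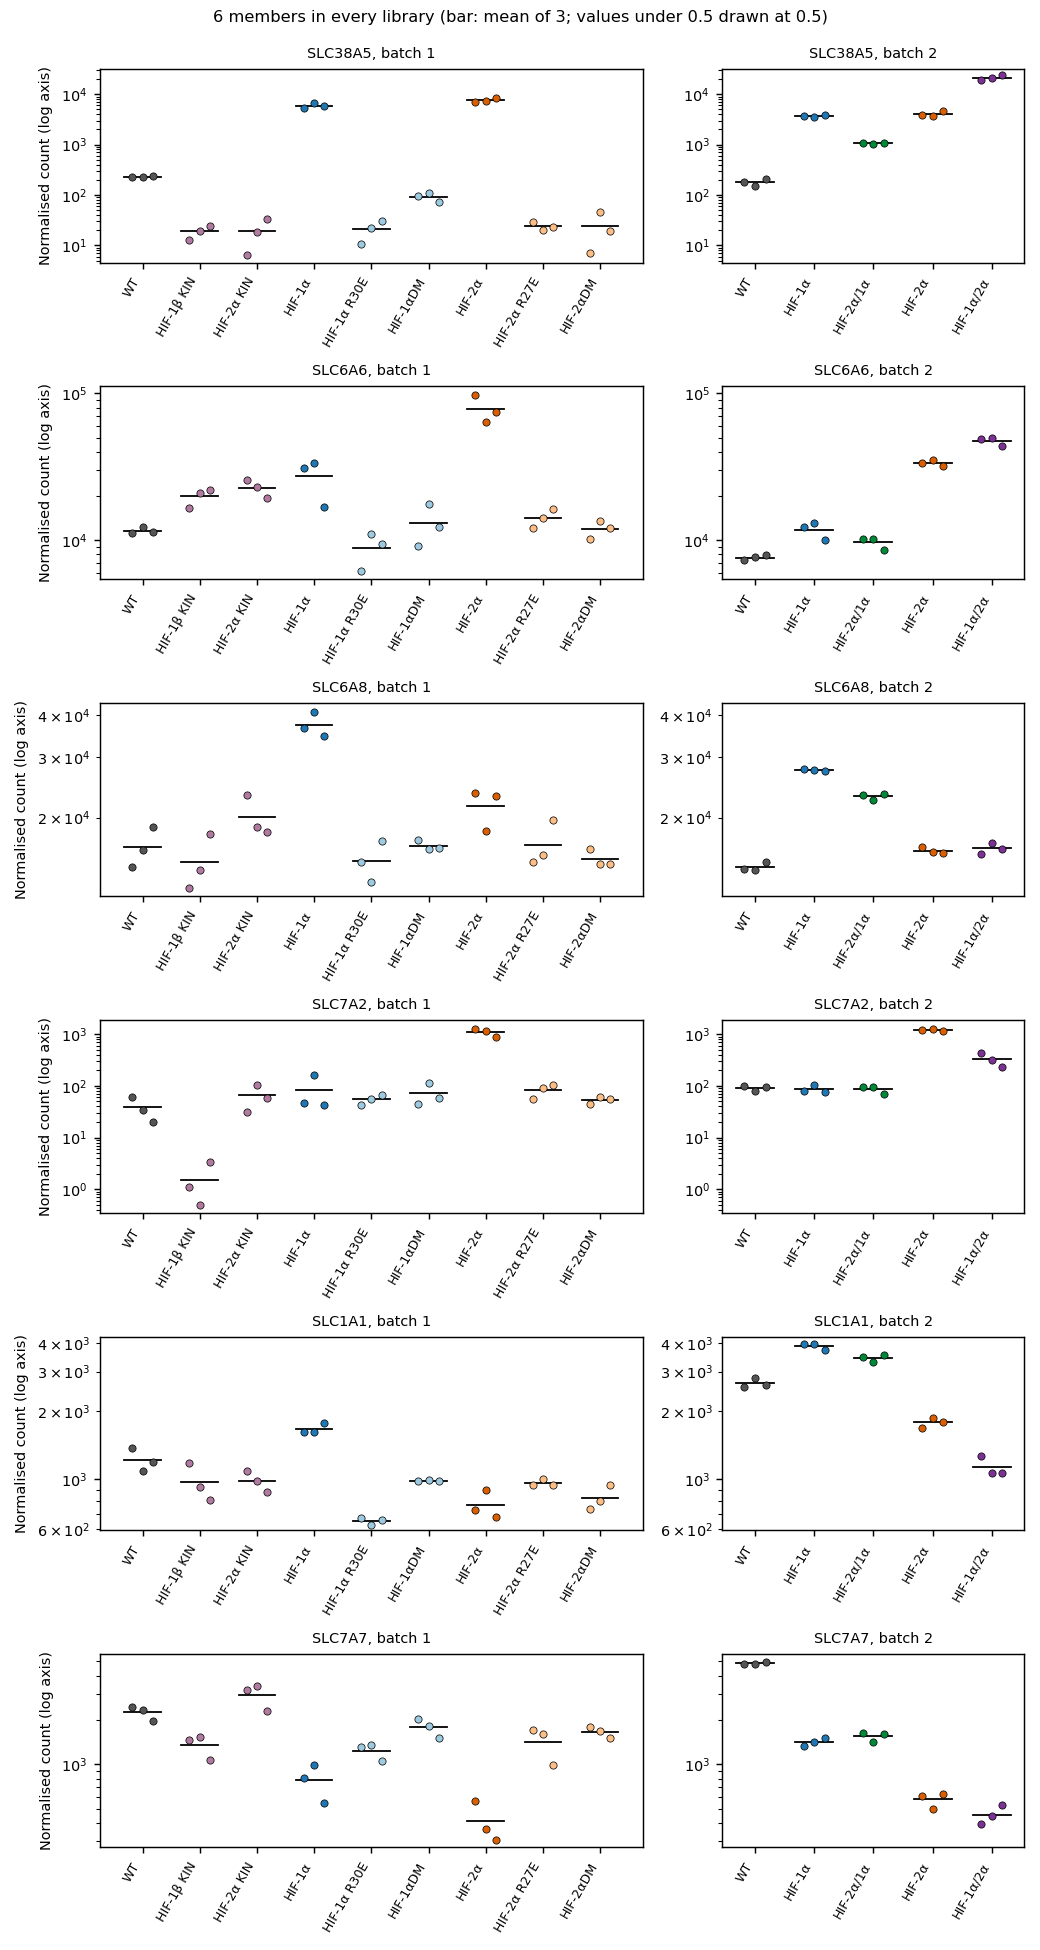
Normalised counts (log axis) of SLC38A5, SLC6A6, SLC6A8, SLC7A2, SLC1A1 and SLC7A7 in every library of the first (left) and second batch (right); points are libraries and bars the mean of 3, and the 1 library of SLC7A2 with no read is drawn at 0.5. SLC38A5 spans from 6.54 in a HIF-2α KIN library to 24161 in a HIF-1α/2α library. SLC6A8 is highest with HIF-1α, SLC6A6 and SLC7A2 with functional protein that has the 2α-IDR, and SLC7A7 is lowest there.

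SLC1A1 (EAAT3), a sodium-driven importer of glutamate, aspartate and cysteine, moved in opposite directions with the 2 IDRs in the second batch. WT cells had 2552, 2805 and 2616 normalised counts, HIF-1α 3978, 3984 and 3750 and HIF-2α/1α 3484, 3293.9 and 3562. HIF-2α had 1695, 1869 and 1793 and HIF-1α/2α 1272, 1067 and 1070. No line overlapped with WT cells. The log2 change was 0.55 with HIF-1α, 0.37 in the chimera with its IDR and -0.57 with HIF-2α, all past the adjusted p but under 2-fold, and -1.22 with HIF-1α/2α (SE 0.0729, adjusted p = 1.27e-18 from edgeR), which was called. Within the first batch WT libraries held 1380, 1093 and 1197, HIF-1α libraries 1620, 1623 and 1783 and HIF-2α libraries 734, 895 and 681. HIF-2α was lower than HIF-1α by 1.12 on the log2 scale there (SE 0.154, adjusted p = 1.69e-05 in edgeR's test) and by 1.13 in the second batch.

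SLC1A3 (EAAT1), a glutamate carrier at low level, was called in the first batch with HIF-2α, whose libraries held 4.74, 7.39 and 11.7 normalised counts against 58.6, 50.3 and 48.5 in WT cells (log2 -2.66, adjusted p = 0.00176 from edgeR). Without HIF-2α replicate 1 (-2.42) or 2 (-2.60) the call was lost. The second batch had 166, 220 and 177 in WT cells and 121, 121 and 116 with HIF-2α, a change of -0.65 that did not pass (adjusted p = 0.0116 in the same edgeR test), and 108, 78.5 and 69.4 with HIF-1α/2α, which was called at -1.13 (-1.0 and not called without HIF-1α/2α replicate 3 or without WT replicate 2). The family 1 carriers of small neutral amino acids, SLC1A5 and SLC1A4 (ASCT1), were lower in all 6 comparisons in value, by -0.65 to -0.21 and -0.86 to -0.35 log2 units. Of these, 4 of 6 passed the adjusted p for each gene, and none reached 2-fold.

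SLC6A6 (TauT), the taurine importer, had 7315, 7644 and 7885 normalised counts in WT cells of batch 2, 33564, 34948 and 32247 with HIF-2α and 48795, 49458 and 43519 with HIF-1α/2α. HIF-1α had 12368, 13037 and 10051 and HIF-2α/1α 10271, 10185 and 8641. All transgenic libraries lay above WT cells, and those with the 2α-IDR far above the others. Its log2 change was 2.14 with HIF-2α (SE 0.0690, adjusted p = 2.76e-28 from edgeR) and 2.63 with HIF-1α/2α, and 0.63 and 0.35 with HIF-1α and HIF-2α/1α, which stayed under 2-fold. Within the first batch WT cells had 11161, 12244 and 11413, HIF-2α 97330, 63440 and 74894 and HIF-1α 31134, 33820 and 16795. HIF-2α was called at 2.76 (SE 0.265, adjusted p = 1.93e-08 in edgeR's test) and HIF-1α at 1.23 (SE 0.252, adjusted p = 0.00154). The HIF-1α call was lost without HIF-1α replicate 1 (1.12), HIF-1α replicate 2 (1.05) or WT replicate 1 (1.21). The gene GRIP2 overlaps SLC6A6 on the other strand, and strand was not used in counting.

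SLC6A8 (CRT), the creatine importer, was called higher with HIF-1α in the first batch. In first-batch libraries WT cells had 14370, 16067 and 18797 normalised counts and HIF-1α 36512, 40737 and 34663, while HIF-2α had 23616, 18211 and 23151. The mutant lines lay between 12957 and 19626. Its log2 change was 1.18 with HIF-1α (SE 0.168, adjusted p = 1.72e-05 from edgeR), and HIF-1α exceeded HIF-1α R30E by 1.32 and HIF-1αDM by 1.17, all called. Within the second batch WT cells had 14143, 13999 and 14840, HIF-1α 27807, 27532 and 27426, HIF-2α/1α 23287, 22483 and 23477, HIF-2α 16367, 15850 and 15766 and HIF-1α/2α 15632, 16894 and 16225. The order was HIF-1α, HIF-2α/1α, the 2α-IDR lines and WT cells. The change was 0.95 with HIF-1α (SE 0.0486, adjusted p = 2.02e-20 in edgeR's test), just under 2-fold, and 0.69 with HIF-2α/1α, against 0.16 and 0.18 with HIF-2α and HIF-1α/2α.

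SLC6A12 (BGT1), a carrier of betaine and GABA, was nearly absent with HIF-1α/2α or functional HIF-2α, though not from the HIF-2α mutants. In first-batch libraries WT cells had 33.9, 62.9 and 35.8 normalised counts and HIF-1α 70.8, 81.9 and 24.6, while the 3 HIF-2α libraries held 0, 0 and 1 reads. HIF-2α R27E had 40.9, 110 and 53.9 and HIF-2αDM 18.5, 39.6 and 44.2. HIF-2α was thus at least 10.7-fold lower than WT cells, with the floor taken as 3 counts in each library (adjusted p = 3.80e-05 from edgeR). Within the second batch WT cells had 14.4, 10.5 and 12.0, HIF-2α no read and HIF-1α/2α 0, 1 and 0 reads, so that the first was at least 3.71-fold lower than WT cells and the second at least 3.97-fold. Both were called. Its neighbour on chromosome 12, SLC6A13 (GAT2), was called in the second batch with HIF-2α, at 2.65 ± 1.83 against 27.9 ± 9.93 in WT cells, and with HIF-1α/2α, at 4.50 ± 1.08 (SD, n = 3 each). In first-batch libraries it was not called with HIF-2α, at 9.31 ± 10.4 against 31.2 ± 16.7.

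SLC6A9 (GlyT1), a glycine importer, fell in the edited clones and in HIF-1α R30E. It had 2108, 2190 and 2228 normalised counts in WT cells of the first batch, 970, 897 and 1124 in the HIF-1β KIN clone, 661, 641 and 693 in the HIF-2α KIN clone and 759, 795 and 760 with HIF-1α R30E. The log2 changes were -1.13, -1.71 and -1.5, each called, with SEs of 0.133 to 0.136. HIF-1αDM with 1537, 1929 and 1708, HIF-2α R27E with 1745, 1668 and 2147 and HIF-2αDM with 1484, 1499 and 1437 lay closer to WT cells and were not called. Of the functional lines in the second batch, HIF-1α/2α was called, at 930, 943 and 818 against 1730, 1667 and 2226 in WT cells (log2 -1.06, adjusted p = 2.06e-13 from edgeR), though not without HIF-1α/2α replicate 3 (-1.0) or WT replicate 3 (-0.92). HIF-1α missed the fold at -0.99.

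Over the edited clones and mutants, 0 to 4 of the 37 members tested were called against WT cells, or 0% to 10.8%. HIF-1β KIN had 4 lower (SLC38A5, SLC6A9, SLC7A2 and SLC7A8; 1.38% of all genes were called in either direction) and HIF-2α KIN 3 lower (SLC38A5, SLC6A9 and SLC7A11; 4.14%). HIF-1α R30E had SLC43A1 higher and SLC38A5 and SLC6A9 lower (2.61%). HIF-2α R27E and HIF-2αDM each had SLC38A5 lower (0.496% and 0.474%). In HIF-1αDM edgeR called none (0.457%), with 6 members at an unadjusted p under 0.05, and DESeq2 called SLC38A5. Each functional protein gave more calls against its own mutant than that mutant gave against WT cells. HIF-1α differed from HIF-1α R30E in 4 members (1.75% of all genes) and from HIF-1αDM in 3 (1.37%), and HIF-2α from HIF-2α R27E in 10 (3.63%) and from HIF-2αDM in 7 (3.96%). Of the 10, SLC6A17 and SLC6A3 had no read in HIF-2α R27E. They passed the filter through lines where they were high, so they had to differ. SLC43A2 against HIF-2αDM was lost without HIF-2αDM replicate 1 (-1.25) or 2 (-1.10), or HIF-2α replicate 1 (-1.19) or 3 (-1.25). With 1 library left out, the count against HIF-2α R27E ran from 5 to 9: SLC7A11 was lost without HIF-2α R27E replicate 1 (-0.94) or HIF-2α replicate 1 (-0.96), SLC43A2 in 5 fits (-1.32 to -0.96) and SLC1A3 in 3 (-2.78 to -2.52). SLC43A2 against HIF-2α R27E was also lost with RLE scaling (-1.04) and with a filter at a mean normalised count of 10 (-1.08). SLC7A7 against HIF-1αDM was lost without HIF-1αDM replicate 1 (-1.10) or 2 (-1.18), or HIF-1α replicate 1 (-1.22) or 3 (-1.0).

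To set the IDR apart from the structured domain, the 4 L30 lines of the second batch were combined. The paper reports that expression from this promoter varied even in stable lines. The fits were not adjusted for the level of the transgene in each line, and its part in the effects was not tested. The IDR effect, the mean log2 level in the pair of 2α-IDR lines less the mean in the 1α-IDR pair, was called for 10 members (5 higher, 5 lower; 4.41% of all genes). Higher with the 2α-IDR were SLC7A2 (2.86, SE 0.125), SLC38A5 (2.25, SE 0.0567), SLC6A6 (1.90, SE 0.0483) and the weakly expressed SLC6A3 and SLC38A4. Lower were SLC7A7 (-1.54, SE 0.0650), SLC1A1 (-1.36, SE 0.0511), SLC7A8 (-1.97, SE 0.244) and the weakly expressed SLC6A12 and SLC6A13. Past the adjusted p but under 2-fold were SLC7A5 (0.66, SE 0.0311), SLC3A2 (0.48, SE 0.0345), SLC43A2 (-0.73), SLC6A8 (-0.65) and SLC7A11 (-0.44). Each of the 12 fits without 1 library also called 10 members. SLC6A3 and SLC38A4 passed the filter through the lines where they were high, so their calls add no support.

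The structured-domain effect, HIF-2α minus HIF-1α N-terminal part, was called for 1 member (1.04% of all genes). This was SLC38A5, which was lower with the HIF-2α part (log2 -2.09, SE 0.0564, adjusted p = 3.44e-30 from edgeR). For SLC7A5 it was 0.19 (SE 0.0310) and for SLC6A6 -0.39 (SE 0.0469), both past the adjusted p. In direct comparison HIF-2α and HIF-1α differed in 4 members in the first batch (2.4% of all genes) and 9 in the second (3.78%). Of the 9, SLC6A15 had no read with HIF-1α and passed the filter through lines where it was high, so it had to differ. The second count was 7 with DESeq2 and 6 to 8 with 1 library left out, and SLC7A8 was lost with DESeq2 (-1.11) and in 5 of those 6 fits, all but the one without HIF-1α replicate 3 (-1.24 to -0.99). SLC6A6 and SLC7A2 were higher and SLC1A1 and SLC6A12 lower with HIF-2α in both. For SLC7A5 this difference was 0.85 in the second batch (SE 0.0441, adjusted p = 2.23e-20 from edgeR) and 0.94 in the first (SE 0.257, adjusted p = 0.0278, not passing).

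**Figure D5:**
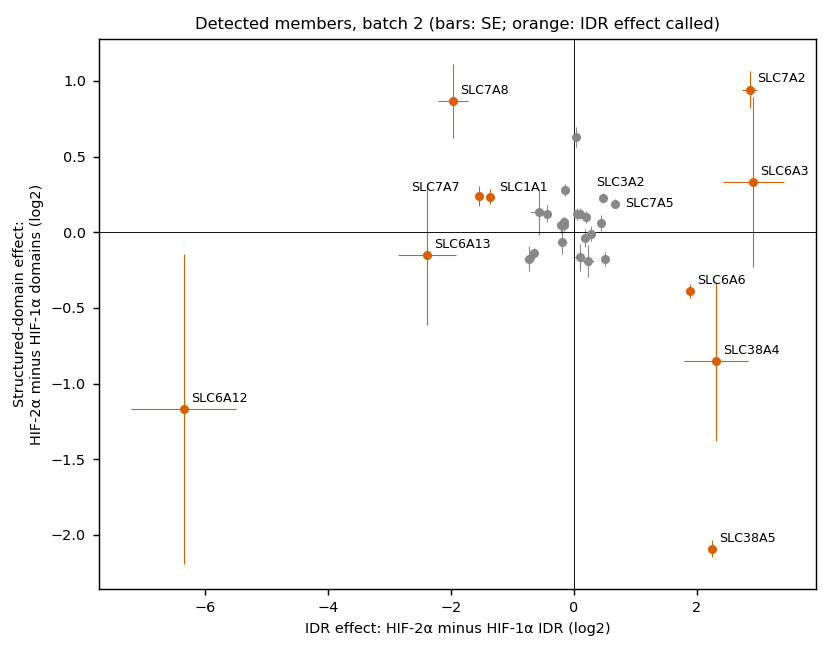
IDR effect (x axis, log2, HIF-2α minus HIF-1α IDR) against structured-domain effect (y axis, log2, HIF-2α minus HIF-1α N-terminal part) of the 31 members detected in the second batch; bars are SEs and orange points have a called IDR effect. SLC38A5 lies low on the right, at 2.25 and -2.09, and the other called members spread along the x axis.

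The HIF-1α and HIF-2α lines were measured in both batches. When the 18 libraries of these lines and of WT cells were fitted together, no member's response was called as different between batches by edgeR, for HIF-1α (0.00374% of all genes) or for HIF-2α (0%). At an unadjusted p under 0.05 there were 6 and 11 members, and DESeq2 called none and 1, SLC1A3 with HIF-2α.

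The other 14 members detected in both batches changed less than 2-fold with functional HIF-α, apart from SLC6A13, though several passed the adjusted p. Without SLC6A13 the fitted log2 changes ran from -0.93 to 0.84. SLC38A1 (SNAT1), a glutamine importer, was lower in all 6 comparisons, by -0.93 to -0.71, each past the adjusted p. SLC38A10 was higher in 4 of 6 past the adjusted p (0.53 to 0.84). SLC38A2 (SNAT2), SLC38A7 and SLC38A9, a lysosomal arginine sensor, ranged from -0.41 to 0.07. SLC7A6 (y+LAT2) ranged from -0.82 to -0.09, SLC36A1 and SLC36A4, proton-driven carriers, from -0.38 to 0.43, and SLC43A3 from -0.34 to 0.61. The 5 members with hardly a read in WT cells, which passed the filter through the lines where they were high, are given as bounds. SLC6A3, the dopamine transporter, had no read in WT cells of the second batch. It was at least 16.9-fold higher with HIF-2α, at least 4.64-fold with HIF-1α/2α and at least 1.73-fold with HIF-1α. The last bound lies under the 2-fold of a call. SLC38A3 (SNAT3) was at least 7.18-fold and at least 5.46-fold higher with HIF-1α in the first and second batch. SLC6A17 was at least 6.81-fold higher with HIF-2α in the first batch, and SLC38A4 (SNAT4) and SLC6A15 at least 6.77-fold and at least 2.80-fold in the second.

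Genes that make, break down or sense amino acids were counted beside the transporters, in 4 lists. Of 27 enzymes of synthesis and breakdown, 3 were called higher and 4 lower with HIF-2α in the second batch (7.58% of all genes were called). HIF-1α/2α gave 3 and 5 (7.78%), HIF-1α 3 and 4 (4.39%), and HIF-2α/1α 3 and 2 (3.49%). In the first batch HIF-2α gave 1 and 4 (5.72%) and HIF-1α 2 and 2 (3.79%). PRODH, which starts proline breakdown, rose from 15.1 ± 8.62 in WT cells to 2880 ± 192 with HIF-2α, 1779 ± 77.5 with HIF-1α/2α and 246 ± 31.1 with HIF-1α (SD, n = 3 each). GLUL, glutamine synthetase, was at 4.68 ± 8.10 in WT cells and 925 ± 96.8 with HIF-1α/2α. PSAT1 and CTH, enzymes of serine and cysteine synthesis, fell in all 4 lines. PSAT1 went from 35320 ± 2692 to 14100 ± 366 with HIF-2α and CTH from 1069 ± 107 to 297.7 ± 69.7 (SD, n = 3 each). BCAT1, which transfers the amino group of branched-chain amino acids, fell with HIF-2α from 19442 ± 875 to 8271 ± 398.

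Of 30 genes of amino acid sensing by mTORC1, 4 were called higher with HIF-2α in the second batch (7.58% of all genes were called). HIF-1α/2α had 5 higher and 1 lower (7.78%), and HIF-1α and HIF-2α/1α 2 higher each (4.39% and 3.49%). First-batch calls were 1 with HIF-2α (RPTOR; 5.72% of all genes) and 1 with HIF-1α (RRAGD; 3.79%). RPTOR, the mTORC1 subunit raptor, rose with HIF-2α from 7705 ± 191 to 23478 ± 2169, and RRAGD, a Rag GTPase, was highest with HIF-1α at 117 ± 20.2 against 2.53 ± 2.81 in WT cells (SD, n = 3 each). Of 6 genes of glutathione synthesis and turnover, CHAC1 and GGT1 were called lower with HIF-2α and HIF-1α/2α of the second batch and CHAC1 with its HIF-1α, but no call was made with either functional isoform of the first batch. None of 18 other amino acid carriers, of which 14 were tested, was called in any of these 4 comparisons.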

How the data were processed

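Poly-A RNA-seq of 42 libraries of 786-O cells was analysed in the 2 batches that the labels give, 27 and 15 libraries. The deposited files hold raw counts per gene, which the authors made from uniquely mapped reads with an unstranded count in HTSeq. The submitters' processing notes name STAR, HTSeq, SAMtools and hg38. Reads of a gene and of an antisense partner cannot be told apart, and 36 of the 59 members have such a partner. Spike-in RNA was not used here.

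Counts were scaled by TMM within each batch and tested with edgeR 4.0.16 (quasi-likelihood, all groups of a batch in 1 fit, Benjamini-Hochberg adjustment over all genes tested, R 4.3.3). Genes with a mean normalised count under 0.5 were left out, which kept 23410 genes of batch 1 and 28724 of batch 2. Changes are called at an adjusted p of 0.01 and 2-fold. Where a group held at most 3 reads in each library, a fold is given against a floor of 3 counts per library, which covers counting error only. Named one by one are SLC7A5, SLC3A2 and the detected members with a mean normalised count of at least 50 in the batch that were called for a functional HIF-α against WT cells or in the IDR effect, or, with group values, only in the clones or mutants. Other members were named after their values were seen. Alternatives were DESeq2 1.42.0, RLE scaling, other filters, the replicate number as a block and leaving out libraries. The members and lists were chosen with earlier results of these data known.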

Additional observations from a re-analysis of the deposited data

Results flagged for a closer look

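SLC7A2, the importer of arginine, lysine and ornithine, responded to the exchange of the IDR by a different amount in the presence of each structured part. The difference between the 2 responses, added after the data were seen, was -1.89 on the log2 scale (SE 0.250, adjusted p = 3.58e-07 from edgeR). Its libraries held 441, 310 and 228 normalised counts with HIF-1α/2α and 78.1, 106 and 76.8 with HIF-1α. They held 1205, 1284 and 1160 with HIF-2α and 95.8, 94.8 and 68.8 with HIF-2α/1α. Both exchanges raised the level without overlap, and the rise was larger on the structured part of HIF-2α. SLC7A2 was the only member called in this comparison (1.18% of all genes were called).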

How the results depend on the processing

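Of the alternative counts of members called or detected, 283 stayed within 1.5 times the reported count and 19 did not. Of the alternative log2 changes of named members, 1249 kept direction and call, 51 lost the call and 4 changed sign. In another 5, all of SLC7A5 or SLC3A2 with HIF-2α in the first batch and all under 2-fold, the adjusted p was passed. In HIF-1αDM the count of 0 became 1 with DESeq2, without the filter on low counts and with the replicate block. In HIF-2αDM the count of 1 became 2 with DESeq2, with a mean normalised count of at least 10 and with the replicate block. The structured-domain count of 1 became 2 without the filter. The batch difference for HIF-2α went from 0 to 1 with DESeq2 and to 2 with the replicate block. Without 1 library the count ran from 3 to 5 for HIF-1α in the first batch, from 5 to 9 for HIF-2α against HIF-2α R27E and from 1 to 2 for the structured domain. SLC7A5 with HIF-1α in the first batch (-0.18) ran from -0.40 to 0.04 without 1 library, and SLC3A2 with HIF-2α/1α from -0.03 to 0.04. The cause was not tested. Same-numbered libraries correlated in the first batch with means of 0.148, 0.155 and 0.429 (lowest pair -0.10), and 24 of 27 correlated best with their own number. In the second batch 9 of 15 did. Libraries of the first batch thus shared variation by number, most of all those numbered 3. Not every pair of that batch correlated and no label says what a number marks, so the main fits were kept without a block. What same-numbered libraries of that batch shared stays in the spread of the main fits, and its cause was not tested. With the replicate block SLC7A5 rose by 0.77 with HIF-2α in the first batch (adjusted p = 0.000611 from edgeR) and SLC3A2 by 0.58 (adjusted p = 0.00199), both past the adjusted p that they missed without it. Depth limits the members with few reads, whose folds are bounds.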
